A study of Mus musculus with 357 samples.

Results

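Prmt2, Mettl7a1 (assay mettl7a1), Cers4 and Tgm2 encode 4 enzymes with unrelated reactions, and they were 4 of the 96 assays measured by quantitative PCR in single hematopoietic stem cells (HSCs) of mouse bone marrow. They were selected on a measured difference, chosen by a higher share of cells with the product, or a higher level of it, at 5 than at 2 weeks of chase in these same cells. Their difference between the times is therefore given as a description, with no test. What the choice did not use is how each gene varied with the other assays from cell to cell within a plate.

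The cells came from Col1a1-tetO-H2B-mCherry mice, in which a fluorescent histone is made under a tetracycline-responsive promoter and diluted as cells divide. The groups were HSCs isolated 5 weeks after labelling (91 cells on plate 1 and 83 on plate 2) and HSCs isolated 2 weeks after labelling (90 and 93 cells), all sorted as Lin-Sca1+c-kit+CD48-CD150+ and all from labelled mice of that 1 genotype. The sources used here name no transactivator, animal, age or sex, so each chase time counts as 1 sample, the plates are the only repeated unit, and plate or chip and chase time cannot be told apart. The fluorescence of single cells was not used here.

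The sort genes were present as transcripts. Kit was detected in 97.8 to 100% of cells on the 4 plates, Slamf1 (CD150) in 51.6 to 74.4%, Ly6a (Sca1) in 72.3 to 93.5% and Cd48 in 1.08 to 2.41%. None of 8 endothelial and stromal markers was on the panel, and of the mature blood markers Ebf1 was at 0 on every plate, Tcf7 in 0 to 2.15% of cells, Klf1 in 4.44 to 7.69%, Dntt in 6.59 to 8.89% and the macrophage gene Csf1r in 4 cells at 5 weeks and 27 at 2 weeks. A cell had a product in 58.8 ± 5.71 assays at 5 weeks and in 54.6 ± 5.36 at 2 weeks (SD over the cells of each time). The mean threshold cycle (Ct) of 14 assays found in nearly every cell, used below as the reference, was 12.96 ± 0.65 at 5 weeks and 13.45 ± 0.53 at 2 weeks, that is, earlier at 5 weeks.

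As background, protein arginine methyltransferases such as Prmt2 add methyl groups to arginines of histones and other proteins, and Prmt2 also acts as a coactivator of nuclear receptors. Mettl7a1 encodes a methyltransferase-like protein of the endoplasmic reticulum and of lipid droplets. Cers4 is a ceramide synthase, which joins a long fatty acyl chain to a sphingoid base, a step from which membrane sphingolipids are built. Tgm2 is a calcium-dependent transglutaminase that cross-links glutamine to lysine residues of proteins and also binds GTP, and it is abundant in endothelium and in some macrophages.

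The DNA just before the annotated start is shown for Prmt2, Mettl7a1 and Cers4, the 3 of the 4 genes matched in the promoter table, so that the letters before their starts can be set beside each other (RefSeq, GRCm38.p6, 250 bases, 5′ to 3′ on the strand of the gene). Capitals mark exact matches on either strand to the motif of the factor NRF1 (both matches here read GCGCTTGCGC, and the fifth base is free), to CCAAT (which reads ATTGG on the other strand) or to GGGCGG (the GC box). The NRF1 motif was added to the search after the sequences had been read. Prmt2 lies at chr10:76237866-76238115 on the minus strand, Mettl7a1 at chr15:100304567-100304816 on the plus strand and Cers4 at chr8:4493155-4493404 on the plus strand.
Prmt2: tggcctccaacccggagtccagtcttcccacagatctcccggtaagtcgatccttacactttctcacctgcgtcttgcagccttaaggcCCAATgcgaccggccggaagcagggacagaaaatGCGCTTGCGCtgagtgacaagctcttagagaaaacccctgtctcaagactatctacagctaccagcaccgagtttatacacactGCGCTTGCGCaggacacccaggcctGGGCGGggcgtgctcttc
Mettl7a1: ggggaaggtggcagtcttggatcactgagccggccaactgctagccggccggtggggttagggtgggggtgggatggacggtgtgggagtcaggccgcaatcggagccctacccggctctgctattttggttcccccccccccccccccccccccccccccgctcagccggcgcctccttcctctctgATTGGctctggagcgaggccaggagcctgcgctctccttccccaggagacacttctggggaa
Cers4: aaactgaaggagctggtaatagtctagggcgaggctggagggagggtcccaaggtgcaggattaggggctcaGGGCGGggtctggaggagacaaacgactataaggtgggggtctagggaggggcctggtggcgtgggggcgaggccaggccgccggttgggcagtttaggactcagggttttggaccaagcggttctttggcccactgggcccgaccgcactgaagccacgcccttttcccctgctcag
The Prmt2 window held GCGCTTGCGC at 2 places, the nearer of them 43 bases before the start, and 3.74% of 32851 promoter windows of this length held at least 1 match to the NRF1 motif. It also held 1 CCAAT, present in 33.8% of windows, and 1 GC box, present in 32.7%. The Mettl7a1 window held 1 CCAAT match on the other strand, 62 bases before the start, and a run of 29 C, and the Cers4 window held 1 GC box. None of the marked matches overlapped another. Also searched on either strand, and not in capitals, were TATAAA (in 12.4% of windows), CCGGAAG (the ETS motif, 6.91%) and CACGTG (the E-box, 6.02%). Of these the Prmt2 window held 1 CCGGAAG and 1 TATAAA on the other strand, printed as TTTATA, and the other windows none. AGATAA, which GATA factors bind, was in none of the 3 windows and in 9.99% of all, and these letters say nothing of whether a factor bound there.

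Prmt2 was the least often detected of the 4 enzymes, and its product was found in more cells at 5 weeks. On the 5-week plates it was detected in 45.1% (41 of 91) and 34.9% (29 of 83) of cells, against 18.9% (17 of 90) and 16.1% (15 of 93) on the 2-week plates. Both 5-week plates lay above both 2-week plates. Pooled over plates the shares were 40.2% at 5 weeks (exact 95% interval for counting error 32.9 to 47.9%) and 17.5% at 2 weeks (12.3 to 23.8%). They lay 22.7 points apart, and single plates 16.1 to 28.9 points apart. In a logistic fit that held the cell's reference Ct constant the gap was 18.4 points, and 19.6 points where the count of other detected assays was held constant.

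The Prmt2 Ct lay in a narrow range in most cells that had the product. The lowest, median and highest Ct were 15.1, 16.9 and 22.9 on 5-week plate 1 and 15.3, 16.7 and 23.99 on 5-week plate 2. On 2-week plate 1 they were 16.01, 17.2 and 17.8, and on 2-week plate 2 they were 15.3, 16.95 and 18.4. The medians of the 4 plates thus lay within 1 cycle, and products later than Ct 20 occurred in 5 cells, all at 5 weeks. The level, in log2 units, is how many cycles the gene came before the cell's mean reference Ct. It was -4.35 ± 2.00 at 5 weeks and -3.68 ± 0.78 at 2 weeks (SD over 70 and 32 detecting cells), which differ by -0.67. Among products at Ct 18 or below the difference was -0.15 and the plates overlapped, without centring it was -0.16, and over all cells, with undetected reactions at the limit, it was 1.25.

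Mettl7a1 was found in most cells, in more of them at 5 weeks, and it came earlier in the cells that had it. It was detected in 80 of 91 and 75 of 83 cells (87.9 and 90.4%) at 5 weeks, against 68 of 90 and 61 of 93 cells (75.6 and 65.6%) at 2 weeks. The plates of the times did not overlap, and the pooled shares were 89.1% at 5 weeks (83.5 to 93.3%) and 70.5% at 2 weeks (63.3 to 76.99%). The gap was 18.6 points, 22.1 at constant reference Ct and 17.6 at a constant count of other detected assays. It was 18.5 points when products later than Ct 18 were left out, since 3 products at 5 weeks and 3 at 2 weeks were that late.

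The Mettl7a1 Ct, not centred, had an earlier lowest value and earlier quartiles on both 5-week plates, while its highest value was latest on 5-week plate 2. The lowest, median and highest Ct were 13.5, 15.3 and 18.3 on 5-week plate 1 and 13.2, 15.4 and 21.4 on 5-week plate 2. They were 14.1, 16.3 and 20.6 on 2-week plate 1 and 14.5, 16.4 and 20.4 on 2-week plate 2. A product at Ct 16 or below was present in 62.1% of 5-week cells and 25.1% of 2-week cells. Relative to the reference assays the level was -2.55 ± 1.32 at 5 weeks and -2.87 ± 1.14 at 2 weeks (SD over detecting cells). The difference of 0.32 (0.18 to 0.47 between single plates) was smaller than the spread over cells. Without centring the difference was 0.89. The RefSeq annotation places Mettl7a3 next to Mettl7a1, and with primer sequences not given in the sources used here, a contribution of a related transcript to this assay was not tested.

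Cers4 was found in more cells at 5 weeks, with the 5-week plates further from each other than for Mettl7a1. It was detected in 80 of 91 and 63 of 83 cells (87.9 and 75.9%) at 5 weeks, against 51 of 90 and 61 of 93 cells (56.7 and 65.6%) at 2 weeks. Pooled, these were 82.2% at 5 weeks (75.7 to 87.6%) and 61.2% at 2 weeks (53.7 to 68.3%), 20.98 points apart, with single plates 10.3 to 31.2 points apart. At constant reference Ct the gap was 17.9 points, and 14.7 at a constant count of other detected assays.

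Cers4 products formed a separate late group on 5-week plate 1. There the lowest, median and highest Ct were 12.6, 14.7 and 24.7, and 11 of its 80 products lay between Ct 22.5 and 24.7 with none between 17.2 and 22.5. The 3 other plates had 2, 2 and 1 products later than Ct 20, on 5-week plate 2 with no such gap, and their medians were 14.9 on 5-week plate 2 and 15.3 and 15.4 on the 2-week plates. The 11 late wells were spread over 6 rows and 8 columns of the plate, and their median reference Ct was 13.2, against 12.8 in the plate's cells with an early Cers4 product. EvaGreen reports any double-stranded DNA, and whether the late products are Cers4 cDNA was not tested. At Ct 18 or below the share of cells with a product was 75.8 and 69.9% on the 5-week plates and 54.4 and 64.5% on the 2-week plates, a difference of 13.4 points with the plates still apart.

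The mean Cers4 level was -2.62 ± 2.57 at 5 weeks and -1.99 ± 1.27 at 2 weeks (SD over detecting cells), which differ by -0.62. Without 5-week plate 1 it was -0.20, for products at Ct 18 or below it was 0.037, and between the medians over detecting cells it was 0.018. Early Cers4 products themselves reached lower Ct values at 5 weeks, with 22.4% of 5-week cells and 3.83% of 2-week cells at Ct 14 or below, a comparison of Ct as deposited that is not centred on the reference.

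**Figure D1:**
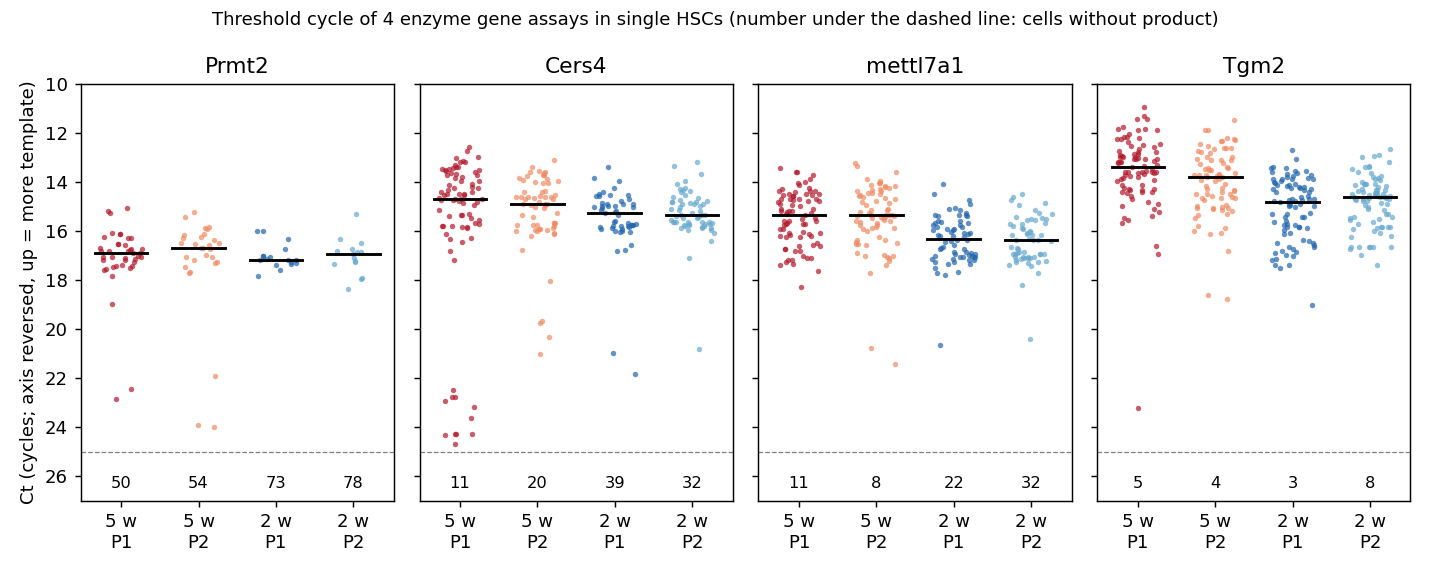
Ct of each assay in each cell (y axis in cycles, reversed so that more template is higher) on the 5-week (red, orange) and 2-week (dark and light blue) plates; bars are medians over detecting cells and the numbers give cells with no product at Ct 25 or below. The median bars of all 4 assays sit higher (earlier Ct, not centred) on both 5-week plates, and 5-week plate 1 holds the separate late group of 11 Cers4 products.

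Tgm2 was found in nearly every cell at both times, and its product came earlier at 5 weeks. It was detected in 86 of 91 and 79 of 83 cells (94.5 and 95.2%) at 5 weeks and in 87 of 90 and 85 of 93 cells (96.7 and 91.4%) at 2 weeks. The shares overlapped, with a difference of 0.84 points and a counting interval of -4.25 to 5.89. The lowest, median and highest Ct were 10.96, 13.4 and 23.2 on 5-week plate 1 and 11.5, 13.8 and 18.8 on 5-week plate 2. On the 2-week plates they were 12.7, 14.8 and 19.01, and 12.6, 14.6 and 17.4. Every quartile of both 5-week plates was thus lower than that of either 2-week plate, and a product at Ct 14 or below was present in 59.8% of 5-week cells and 19.1% of 2-week cells.

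Relative to the reference assays the Tgm2 level was -0.76 ± 1.39 and -1.001 ± 1.16 on the 5-week plates, against -1.65 ± 1.13 and -1.46 ± 1.05 on the 2-week plates (SD over 86, 79, 87 and 85 cells). From high to low the order was 5-week plate 1, 5-week plate 2, 2-week plate 2 and 2-week plate 1, and the gap between neighbours was smaller than the SD over the cells of a plate. The times differed by 0.68, and single plates by 0.46 to 0.89. The difference between the times was 1.18 without centring, 1.07 with centring on Actb and Gapdh, and 0.76 among products at Ct 18 or below.

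**Figure D2:**
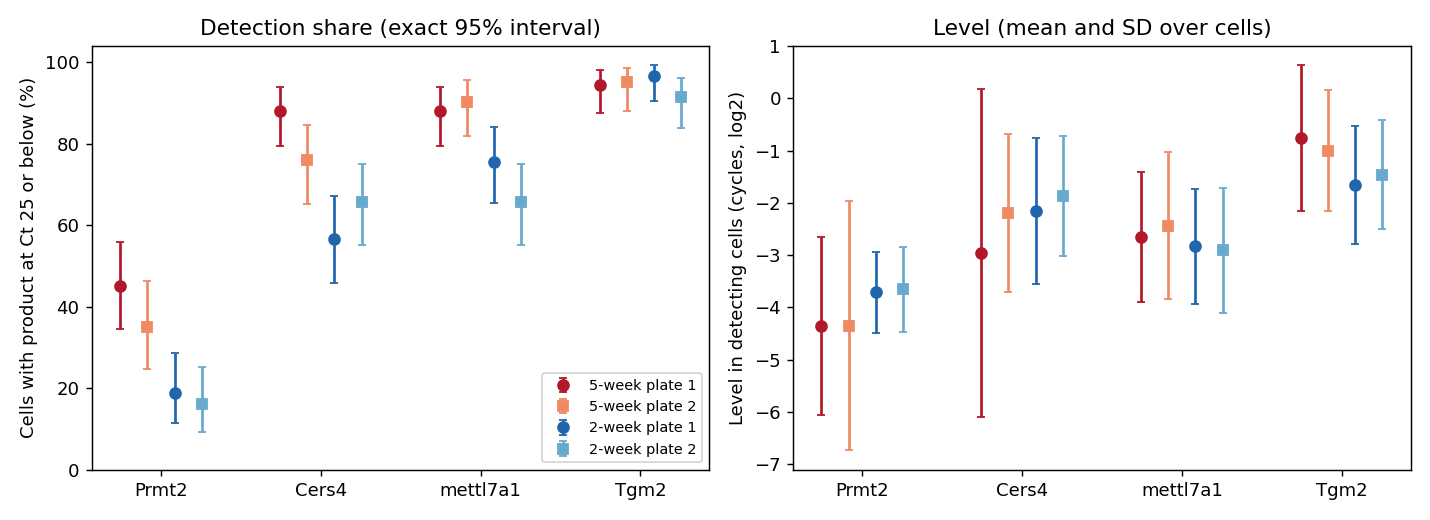
Left, percentage of cells with a product at Ct 25 or below with exact 95% intervals for counting error; right, level in detecting cells (reference Ct minus gene Ct, log2 units) as mean and SD over cells, for each 5-week and 2-week plate. The shares of Prmt2, Cers4 and mettl7a1 are higher on both 5-week plates, those of Tgm2 overlap, and the SD of the Cers4 level on 5-week plate 1 is 3.14.

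Set against the whole panel, 3 of the 4 enzymes (Prmt2, mettl7a1 and Cers4) had both 5-week plates above both 2-week plates in share, as did 41 of 96 assays (42.7%), while 7 assays (7.29%) lay below. In level 2 of the 4 (mettl7a1 and Tgm2) lay above and 2 (Prmt2 and Cers4) below, where 24 of 80 assays (30%) lay above and 35 (43.8%) below. The Cers4 plates overlapped in level without centring, with centring on Actb and Gapdh, by the median over cells, and at Ct 20 and 18, and the Prmt2 plates at Ct 20 and 18. Without centring 61.2% of the 80 assays lay above and 7.5% below. At a limit of Ct 18 the percentages were 43.8 above and 5.21 below for share, and 32.9 above and 37.1 below for level. Since these differences chose the genes, the counts are no result about them. Over the whole panel the median difference came to 2.85 points in share and -0.13 in level. Assays detected in about as many cells did not all differ alike: beside Prmt2, Hk3 (a hexokinase) differed by 2.04 points and Fos by 27.7, and beside Cers4, Rbl1 differed by -0.98 points and Cdkn1b by 37.7.

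**Figure D3:**
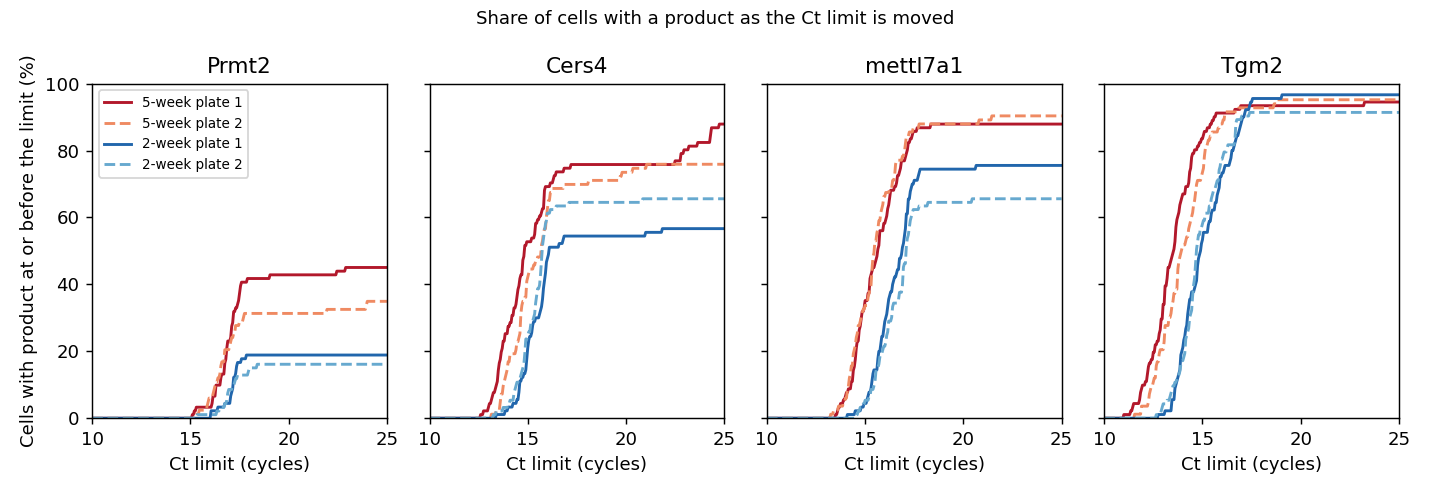
Percentage of cells with a product at or before a Ct limit (x axis, cycles) for the 5-week plates (red, orange) and 2-week plates (dark and light blue). The curves of mettl7a1 climb little after Ct 18, those of Prmt2 climb after Ct 18 by a few late products on the 5-week plates, that of Cers4 on 5-week plate 1 climbs again after Ct 22, and those of Tgm2 differ at early limits and meet at late ones.

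Taking the 4 enzymes together in single cells, all 4 products were present in 36.3 and 24.1% of 5-week cells by plate, against 12.2 and 9.68% of 2-week cells. The detection shares of the single genes, by which genes were chosen, enter these percentages, so their difference between the times is no separate result. Between the enzymes there was little co-variation within a plate. Spearman's rho of Ct, with undetected reactions at the limit, had a median over the plates between 0.02 and 0.12 for their 6 pairs, and none of the 6 kept 1 sign on every plate except Cers4 with Tgm2 (0.02 to 0.30). mettl7a1 and Tgm2 had rho of 0.13 and 0.43 on the 5-week plates and -0.08 and -0.20 on the 2-week plates. Cells of a plate share the sort, the pre-amplification and the chip, so rho is given as a description over the 83 to 93 cells of each plate.

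mettl7a1 varied with genes of the stem cell state. By the weakest plate, its highest partner was Ly6a, which encodes Sca1, with rho of 0.39 and 0.44 on the 5-week plates and 0.34 and 0.36 on the 2-week plates. The next was Hlf, a transcription factor of HSCs, with 0.34 and 0.41 at 5 weeks and 0.45 and 0.29 at 2 weeks. Mllt3, a regulator of HSC maintenance, had a median rho of 0.18 (0.15 to 0.28) and Fgd5, a gene that marks HSCs, 0.23 (0.12 to 0.32). The median for Ly6a was 0.37 with and without the reference Ct held constant. Hlf is itself 1 of the 14 reference assays, and with Hlf left out of the reference its median was 0.38 with and without it held constant.

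Counted by cells, mettl7a1 was detected in 94.03% of the 67 cells with Ly6a and 70.8% of the 24 without it on 5-week plate 1, and in 93.3% of 60 and 82.6% of 23 on 5-week plate 2. On the 2-week plates it was detected in 80% of 80 cells with Ly6a and 40% of 10 without it, and in 67.8% of 87 and 33.3% of 6. The share was higher beside Ly6a on all 4 plates, over few cells without Ly6a at 2 weeks. Among cells with both products the median rho was 0.17 (0.17 to 0.51). Ly6a and Hlf also varied together (rho 0.18 to 0.43), and given Hlf the rho of mettl7a1 with Ly6a was 0.22 to 0.35.

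Between the times, mettl7a1 and Ly6a went opposite ways. mettl7a1 was detected in 18.6 points more cells at 5 weeks, while Ly6a was present in 72.99% of 5-week cells and 91.3% of 2-week cells, which differ by -18.3 points. The positive correlation within each plate and the opposed differences between times stand side by side in the same cells.

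On the negative side, mettl7a1 was lower in cells with more transcript of CDK6, Gata1, Myc and Cdt1. Other cell cycle, megakaryocyte and erythroid genes did not all go this way, and several changed sign between plates. The cell cycle inhibitors Cdkn1b (0.09 to 0.17) and Cdkn1c (0.02 to 0.20) and the erythroid and megakaryocyte gene Nfe2 (0.04 to 0.17) had positive rho on every plate. With CDK6, a kinase of the G1 phase, rho was -0.36 and -0.40 on the 5-week plates and -0.10 and -0.27 on the 2-week plates. With Gata1, the erythroid and megakaryocytic transcription factor, it was -0.33 and -0.17 at 5 weeks and -0.37 and -0.20 at 2 weeks. Myc had a median rho of -0.19 (-0.23 to -0.12) and Cdt1, a replication licensing factor, -0.19 (-0.34 to -0.09). mettl7a1 was detected in 72.2% of the 18 cells with Gata1 and 91.8% of the 73 without it on 5-week plate 1, in 82.4% of 17 and 92.4% of 66 on 5-week plate 2, and in 36.4% of 11 and 81.01% of 79, and 40% of 10 and 68.7% of 83, on the 2-week plates. For CDK6 the plates differed in direction. On 2-week plate 1 mettl7a1 was detected in 80% of 70 cells with CDK6 and 60% of 20 without it. On the other plates it was detected in 61.9 to 88.7% of cells with CDK6 and in 100% of the few without it. Itga2b (CD41), outside the rule for named partners and chosen after its values were seen, had rho of -0.26 and -0.04 at 5 weeks and -0.33 and -0.29 at 2 weeks.

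**Figure D4:**
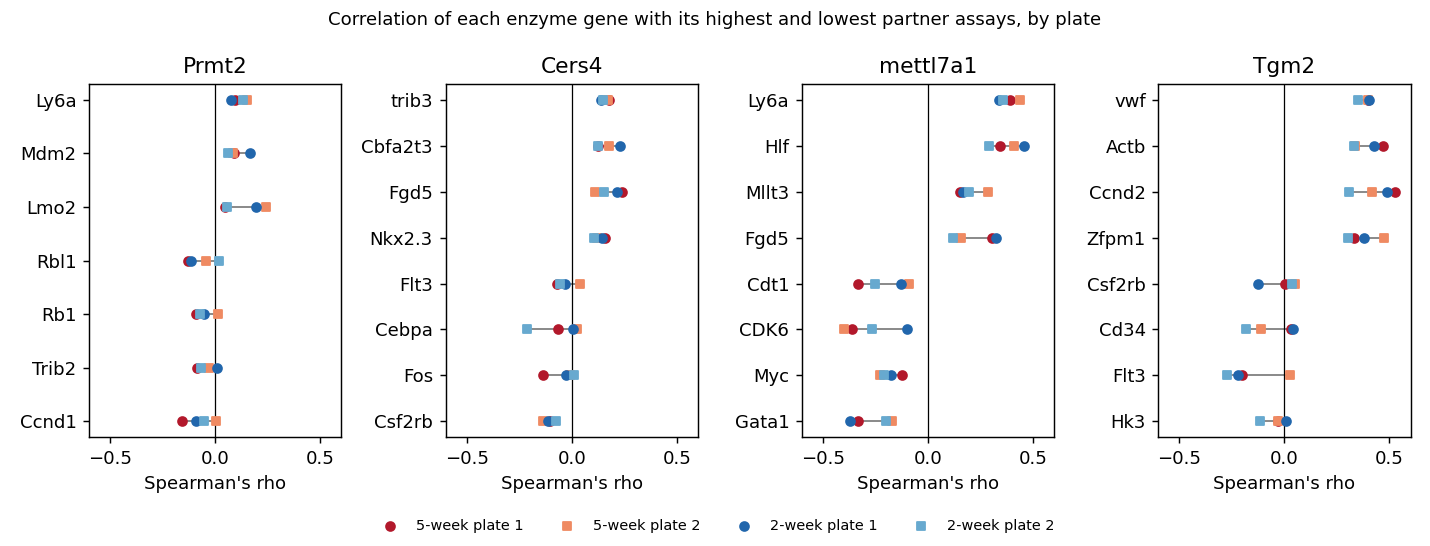
Spearman's rho (x axis) of each enzyme gene with up to 4 assays of highest and 4 of lowest correlation, ranked by the plate on which it is weakest, with 1 point for each plate (5-week in red and orange, 2-week in blues). The mettl7a1 points lie on 1 side of 0 for all 8 partners and the 4 upper Tgm2 partners lie between 0.30 and 0.52, while the points of Prmt2 and Cers4 lie between -0.21 and 0.24.

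Tgm2 varied with vwf and with genes detected in nearly every cell. With vwf, which encodes von Willebrand factor of megakaryocytes and platelet-primed HSCs, rho was 0.40 and 0.40 on the 5-week plates and 0.40 and 0.35 on the 2-week plates. With the D-type cyclin Ccnd2 it was 0.52 and 0.42 at 5 weeks and 0.49 and 0.31 at 2 weeks, with Actb 0.33 to 0.47, and with Zfpm1, which encodes the GATA cofactor FOG1, 0.30 to 0.47. Tgm2 also followed the overall Ct of the cell, with rho of 0.36 to 0.51 between its Ct and the reference Ct, beside -0.07 to 0.36 for Cers4, -0.22 to 0.14 for mettl7a1 and 0.04 to 0.19 for Prmt2. Given the reference Ct, the median rho with vwf was 0.33 (0.31 to 0.40). Ccnd2, Zfpm1 and Actb are themselves among the 14 reference assays, so each was left out of the reference for its own pair. Given that reference Ct, the median rho with Ccnd2 was 0.28 (0.19 to 0.39), beside 0.45 without it. With Zfpm1 it was 0.19 (0.08 to 0.34), beside 0.36, and with Actb 0.14 (-0.06 to 0.19), beside 0.38.

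Every vwf-detected cell but 1 had Tgm2 (46 of 46 and 43 of 43 on the 5-week plates, 30 of 31 and 32 of 32 on the 2-week plates), beside 40 of 45, 36 of 40, 57 of 59 and 53 of 61 of the cells without vwf. Among cells with both products the median rho was 0.25 (0.16 to 0.30). No low partner of Tgm2 kept a negative sign on every plate. By the rule the lowest was Hk3, with rho of -0.12 to 0.01. With the cytokine receptor gene Flt3, active in lymphoid and multipotent progenitors, Tgm2 had rho of -0.20 and 0.02 at 5 weeks and -0.22 and -0.28 at 2 weeks. With Cd34 it was -0.18 to 0.04 and with Csf2rb -0.13 to 0.05.

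**Figure D5:**
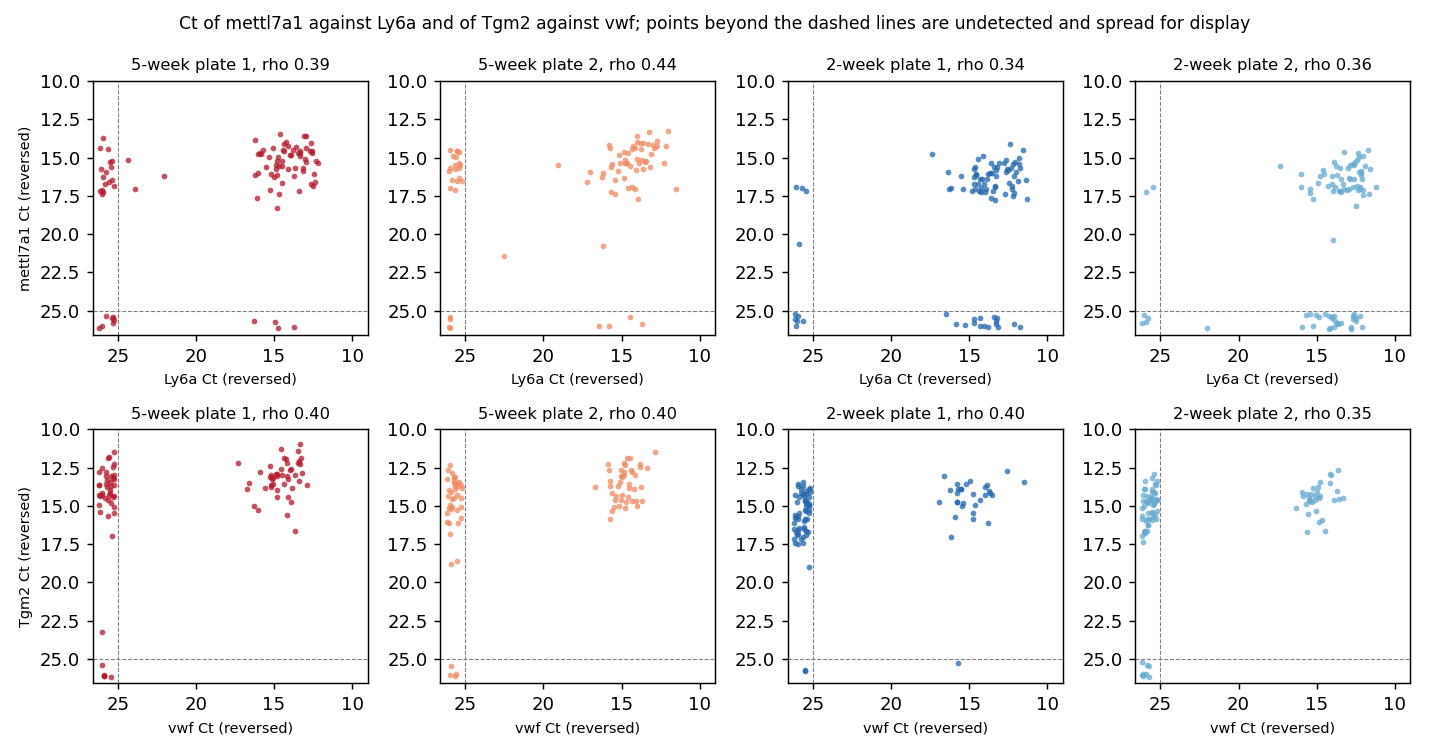
Ct of mettl7a1 against Ly6a (upper row) and of Tgm2 against vwf (lower row) in the cells of each 5-week and 2-week plate, with both axes reversed and in cycles; points beyond the dashed lines at Ct 25 are undetected and spread out for display. The rho above each panel is 0.34 to 0.44 for the upper row and 0.35 to 0.40 for the lower row.

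Prmt2 and Cers4 had no strong partner. For Prmt2 the highest partners were Ly6a, with rho of 0.08 to 0.15, and Mdm2, with 0.06 to 0.16, and the lowest was Ccnd1, with -0.16 to 0.00. For Cers4 the highest were the pseudokinase gene trib3 (0.14 to 0.18), the corepressor gene Cbfa2t3 (0.13 to 0.23) and Fgd5 (0.11 to 0.24), and the lowest was the cytokine receptor chain Csf2rb (-0.14 to -0.07). Such weak values in assays that miss many cells are no finding. A rho of at least 0.2 on every plate was reached by 6.67% of the 3240 pairs among 81 assays whose share was 10% or more on each plate, and by 9 of the 80 partners of Tgm2, 2 of those of mettl7a1 and 0 of those of Prmt2 and of Cers4. At 0.3 the share of pairs was 2.01%, and mettl7a1 with Ly6a and Tgm2 with vwf were among them. A rho of -0.2 or below on every plate was reached by 0.154% of pairs and by 0 partners of the 4 enzymes.

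Related genes on the panel were few. Of 24 listed methyltransferase and chromatin genes 5 were measured. Of those reported here, the Polycomb histone methyltransferase gene Ezh1 differed by 10.4 points in share, Prdm16 by 9.77, Cbx7 by 6.50 and Cbx6 by 0.92, with plates apart for the first pair. Ezh1, outside the rule for named partners and chosen after its values were seen, had these values with mettl7a1 (rho 0.34 and 0.24 at 5 weeks, 0.03 and 0.19 at 2 weeks). Of 17 listed genes of sphingolipid and lipid metabolism 0 were measured, so Cers4 had no pathway neighbour here. Of 10 genes of transglutaminase substrates and adhesion, vwf and Itga2b were measured, and both had plates apart, with differences of 16.7 and 11.3 points. Both 5-week plates lay above in 41 of all 96 assays (42.7%), so the related genes with plates apart are no result about the enzymes.

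By list, the median rho of mettl7a1 was 0.10 over 16 stem cell genes, -0.10 over 8 megakaryocyte and erythroid genes and -0.08 over 14 cell cycle genes, beside 0.02 over all 80 assays. That of Tgm2 was 0.16, 0.27 and 0.21 over the same lists and 0.05 over 8 myeloid and lymphoid genes, beside 0.18 over all. Prmt2 had list medians between -0.01 and 0.07, and Cers4 between 0.08 and 0.12, beside 0.03 and 0.11 over all assays. The list medians of mettl7a1 and Tgm2 over the megakaryocyte and erythroid genes thus differed in sign, a difference that was not tested. All list medians are without the reference Ct held constant, and Tgm2 followed that Ct with rho of 0.36 to 0.51. Nfe2 and Zfpm1 of this list are themselves reference assays. Single genes of the list did not all follow, and Nfe2 had a positive rho with both enzymes on every plate.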

How the data were processed

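The values deposited by the authors are threshold cycles (Ct) without normalization, 1 for each of 96 assays in each of 357 cells, with 999 for a reaction with no product. Per the labels' protocols, each sorted cell was lysed in a plate well, and the cDNA was pre-amplified in multiplex for 22 cycles, followed by a 5-fold dilution and 30 cycles of EvaGreen qPCR on a microfluidic array. The Ct software, its threshold and the primers were not given in the sources used here. Wells without a cell were not analysed here. Of 34272 reactions 40.8% had no product.

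A product at Ct 25 or below was called detected. Wells with under 20% of assays detected would have been removed, and 0 were. Shares carry exact Clopper-Pearson 95% intervals for counting error only. Differences in share between the times carry Newcombe 95% intervals, also for counting error only. The reference was the mean Ct of 14 assays whose share was 95% or more on every plate. Levels need 10 detecting cells on each plate (80 assays), and correlations a share of 10% on each plate (81 assays). No test was made between the times, since the labels name no animal and each time is 1 sample. "Apart" means that both plates of 1 time lie above or below both of the other. Steps were tested on simulated plates. Named genes were the 4 enzymes, the 4 highest and 4 lowest partners of each by the weakest plate, the 4 assays nearest in detection share, and the listed genes, of which some are not reported here. The members and lists were chosen with earlier results of these data known. Assays were matched to RefSeq symbols of GRCm38.p6. Promoters were found for 3 of the 4 genes. Python 3.11.15, pandas 2.3.3, numpy 2.4.6, scipy 1.17.1, statsmodels 0.14.6 and matplotlib 3.10.9 were used.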

Additional observations from a re-analysis of the deposited data

How the results depend on the processing

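The counting intervals of the differences in detection share were 13.4 to 31.6 points for Prmt2, 11.7 to 29.7 for Cers4 and 10.3 to 26.5 for mettl7a1. The differences stayed inside these intervals, and positive, under every alternative tried: Ct limits of 23, 20 and 18 and none, no well filter, both covariates and each plate left out in turn. Leaving out plates gave 17.5 to 27.6, 14.7 to 26.7 and 13.5 to 23.5 points, and for Tgm2, whose plates overlapped, -1.84 to 3.43. Plate numbers only name plates and do not pair them. The mean of the differences within plate number, taken as a replicate block, was 22.5 points for Prmt2, 20.8 for Cers4, 18.6 for mettl7a1 and 0.81 for Tgm2, and in level -0.67, -0.56, 0.32 and 0.68, and it changed no call.

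Levels depended more on the processing. For Prmt2, Cers4, mettl7a1 and Tgm2 the level difference was -0.16, -0.16, 0.89 and 1.18 without centring. With centring on Actb and Gapdh it was -0.37 for Prmt2, -0.22 for Cers4 (plates overlapping), 0.67 for mettl7a1 and 1.07 for Tgm2, and relative to the median of all assays -0.53 for Prmt2 and 0.45 for mettl7a1. Over all cells with undetected reactions at the limit it was 1.25 for Prmt2, 1.39 for Cers4 and 1.90 for mettl7a1, which by construction adds the share to the level. Between medians it was -0.34 for Prmt2 and 0.018 for Cers4. Ct limits of 23, 20 and 18 gave -0.44, -0.15 and -0.15 for Prmt2 and -0.20, -0.036 and 0.037 for Cers4, and no limit gave -0.81 for Prmt2, since each limit leaves out late products. Leaving out plates gave -0.69 to -0.64 for Prmt2, -0.96 to -0.20 for Cers4, 0.21 to 0.43 for mettl7a1 and 0.55 to 0.80 for Tgm2.

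The median rho of mettl7a1 with Ly6a was 0.33 as Pearson's r, 0.24 as phi of detected or not and 0.17 among cells with both products, and that of Tgm2 with vwf was 0.32, 0.23 and 0.25, and 0.33 given the reference Ct and 0.31 given the number of detected assays. Of the named pairs with 1 sign on every plate, the sign of the median turned among cells with both products for Cers4 with trib3 (-0.16) and mettl7a1 with Myc (0.037), and as phi for mettl7a1 with Hlf (-0.057), where Hlf is missing from hardly any cell. Weaker pairs whose sign already varied between plates are not counted here. The cause was not tested for the others. The counts of assays with plates apart in share were 41 higher and 7 lower, and between 41 and 43 and between 5 and 7 under the other Ct limits. With 1 sample for each time, no setting can show spread between animals.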
